A study of Homo sapiens with 6 samples.

Results

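Microexons are internal exons so short that they add only a few amino acids to a protein, and those of 3 to 27 bases were described here. They were taken from the reference transcript models of the deposited merged assembly, those whose structure equals a RefSeq transcript, on chromosomes 1 to 22 and X. A microexon was a distinct internal exon, by chromosome, first base, last base and strand. It was called constitutive when every model of its gene name that spans it contains it, and alternative otherwise. The rule found 1518 microexons among 180874 internal exons, in 1159 of 19767 gene names with an internal exon (5.86%). A further 7928 exons had 28 to 51 bases and 171428 had 52 bases or more.

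The assembly came from 6 RNA libraries of the human beta cell line EndoC-βH1, which was made by transforming fetal pancreas. All 6 carried a lentiviral shRNA construct aimed at the promoter of INS, the insulin gene. In the 3 INS-KD libraries the shRNA was induced with doxycycline at 1 mg/mL for 7 days, and the 3 negative control libraries, with the same construct, received no doxycycline. The file pools all libraries into 1 set of models with no abundance, so no value for INS-KD or negative control cells, no depth and no marker level could be given. A reference model in it is an annotated structure, and its presence is not a measurement of its level in these cells. The 95% intervals given with shares are exact (Clopper-Pearson). They reflect counting error alone, and exons of 1 gene are not independent.

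Very short exons leave little room for the splicing signals that usually lie inside an exon, and their recognition leans on the flanking introns. In neurons and endocrine cells a set of microexons is switched on by SRRM4 and its relative SRRM3, serine/arginine-rich proteins that bind UGC letters just upstream of the exon, while PTBP1 holds many of them back. Most of these exons keep the reading frame and change short surface stretches of proteins of the cytoskeleton, of vesicle traffic and of the synapse.

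The sequences below show microexons on which the results turn, with the exon in capitals and 24 bases of intron in lower case on either side, 5′ to 3′ on the transcript strand. They were read from the GRCh37 genome sequence, the build named hg19 in the processing notes, and coordinates are those of the exon. The first 3 were the shortest alternative microexons with the usual splice-site letters, AG before and GT after the exon. All 3 lie in coding sequence of GENCODE release 44.
HOOK2, 6 bases, chr19:12876643-12876648 (minus strand): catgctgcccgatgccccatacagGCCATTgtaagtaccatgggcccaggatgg
NSMF, 6 bases, chr9:140350081-140350086 (minus strand): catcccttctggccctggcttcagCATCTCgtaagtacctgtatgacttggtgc
GIT2, 6 bases, chr12:110405119-110405124 (minus strand): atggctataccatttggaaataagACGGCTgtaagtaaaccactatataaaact

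The next 8 belong to PTPRD and PTPRS, paralogous receptor tyrosine phosphatases of the synapse whose extracellular microexons are known to set which partners they bind. They are shown because the genes carry microexons of the same lengths. The last 2 share their donor, and their acceptors lie 3 bases apart.
PTPRD, 9 bases, chr9:8527345-8527353 (minus strand): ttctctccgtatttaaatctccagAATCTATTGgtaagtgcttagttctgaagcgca
PTPRS, 9 bases, chr19:5262975-5262983 (minus strand): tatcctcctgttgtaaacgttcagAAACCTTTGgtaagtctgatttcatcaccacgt
PTPRD, 12 bases, chr9:8523513-8523524 (minus strand): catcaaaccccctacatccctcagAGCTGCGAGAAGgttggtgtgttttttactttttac
PTPRS, 12 bases, chr19:5256119-5256130 (minus strand): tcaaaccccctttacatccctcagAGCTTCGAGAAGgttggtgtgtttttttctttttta
PTPRD, 27 bases, chr9:8497242-8497268 (minus strand): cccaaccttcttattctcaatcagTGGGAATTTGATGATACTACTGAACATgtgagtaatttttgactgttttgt
PTPRS, 27 bases, chr19:5229327-5229353 (minus strand): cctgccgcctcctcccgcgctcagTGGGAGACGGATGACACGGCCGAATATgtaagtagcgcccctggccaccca
PTPRD, 12 bases, chr9:8454580-8454591 (minus strand): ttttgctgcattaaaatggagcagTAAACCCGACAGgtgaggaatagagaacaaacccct
PTPRD, 15 bases, chr9:8454580-8454594 (minus strand): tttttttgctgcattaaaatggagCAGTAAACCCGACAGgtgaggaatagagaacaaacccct

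The remaining 8 lie in genes of secretion, excitability and the cytoskeleton, or were both held and skipped by assembled models. Their genes are described with the results.
CADPS, 21 bases, chr3:62479320-62479340 (minus strand): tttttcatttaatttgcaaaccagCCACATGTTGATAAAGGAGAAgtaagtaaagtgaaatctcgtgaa
CADPS, 18 bases, chr3:62498426-62498443 (minus strand): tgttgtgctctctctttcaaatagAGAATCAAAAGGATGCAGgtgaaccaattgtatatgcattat
KCNMA1, 9 bases, chr10:78767943-78767951 (minus strand): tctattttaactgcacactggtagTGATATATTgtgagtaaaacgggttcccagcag
KCNMA1, 12 bases, chr10:78785204-78785215 (minus strand): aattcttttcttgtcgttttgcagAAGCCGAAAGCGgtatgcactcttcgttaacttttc
CACNA1D, 27 bases, chr3:53836174-53836200 (plus strand): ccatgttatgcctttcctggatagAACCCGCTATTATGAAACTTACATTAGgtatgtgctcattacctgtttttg
SNAP91, 15 bases, chr6:84311304-84311318 (minus strand): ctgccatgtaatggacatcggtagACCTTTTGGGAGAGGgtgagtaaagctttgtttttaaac
ABI1, 15 bases, chr10:27060004-27060018 (minus strand): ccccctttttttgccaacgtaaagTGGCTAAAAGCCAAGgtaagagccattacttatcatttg
DTNA, 9 bases, chr18:32405231-32405239 (plus strand): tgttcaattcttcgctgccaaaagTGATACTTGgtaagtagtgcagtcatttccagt

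Before the other results, a group of members that stood apart is described separately, and results are given with and without it where they moved. In all, 109 microexons in 50 gene names lay in reference models of fewer than 200 spliced bases: 88 in 39 MIR names, 19 in 10 RNU names and 2 in BCYRN1. MIR and RNU names belong to microRNA precursors and small nuclear RNAs, which are short RNAs usually made without splicing. The 53 models held a median of 77 spliced bases (range 35 to 191) spread over a median of 205278 genomic bases (range 4652 to 836530). Only 2 of the 109 microexons (1.83%) had the canonical intron ends AG before and GT or GC after, and 0 were exons of GENCODE. Each was spanned by 1 model, so the rule could only call it constitutive. Of the other 1409, 1354 had canonical ends (96.1%), 1325 were exact GENCODE exons (94.0%) and 1206 lay in its coding sequence (85.6%). Exons of 52 bases or more had canonical ends in 99.5% and were in GENCODE in 98.9%.

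Microexons were most numerous near the upper length limit, with peaks at multiples of 3. There were 87 microexons of 12 bases, 59 of 15, 92 of 18, 172 of 21, 169 of 24 and 272 of 27. At the limit, 77 exons had 26 bases and 272 had 27, just inside, and 117 had 28, 157 had 29 and 243 had 30, just outside. No internal exon had 1 or 2 bases. By gene label, 948 genes held 1 microexon, 128 held 2 and 38 held 3. Some microexons sat beside each other: 285 of 1518 had another microexon as a neighbouring exon (18.8%), against 1.20% of exons of 52 bases or more that had a microexon beside them. Without models under 200 spliced bases the count was 198 of 1409 (14.1%).

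**Figure D1:**
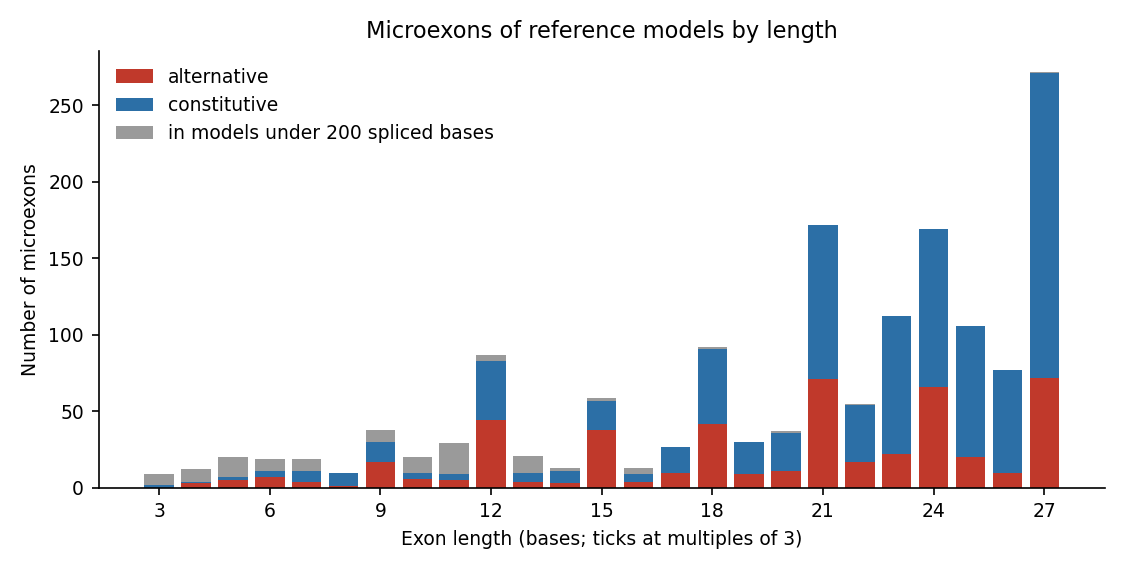
Number of microexons at each exon length in bases, split into alternative members, constitutive members and members of models under 200 spliced bases. The tallest bars stand at 27, 21 and 24 bases, and the members of very short models lie mostly below 15 bases.

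The shortest members were the least certain. Of 60 microexons of 3 to 6 bases, 24 lay in models of 200 spliced bases or more. In those models, 4 of 24 microexons of 3 to 6 bases had canonical ends (16.7%, interval 4.74 to 37.4%), against 37 of 51 of 7 to 9 bases (72.5%), 299 of 307 of 10 to 18 bases (97.4%) and 1014 of 1027 of 19 to 27 bases (98.7%). The 4, named after their values were seen, were the 6-base exons of GIT2, an ARF GTPase-activating scaffold, HOOK2, a linker of cargo to microtubules, NSMF, a messenger between synapse and nucleus, and TULP1, a photoreceptor protein. All 4 were in GENCODE as coding. HOOK2 held its exon in 1 of 2 spanning reference models, NSMF in 2 of 5 and GIT2 in 1 of 6, while TULP1 held it in 2 of 2. GIT2 was the member of this set seen in assembled models that join known and new structure, where 3 of 3 contained it. In contrast, the 4-base exons of ATL1, COL6A4P2 and LINC01128 and the 5-base exon of NBEA had ends other than AG and GT or GC and were not in GENCODE. Across models of 200 spliced bases or more, 5 of the 55 microexons with non-canonical ends were GENCODE exons (9.09%), against 1320 of the 1354 with canonical ends (97.5%).

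Microexons were alternative more often than longer exons. In all, 491 of 1518 were alternative (32.3%, interval 30 to 34.8%), beside 11.4% of all internal exons. A call needs at least 2 spanning models, and 607 microexons were spanned by 1 model only. Among the 911 with 2 or more spanning models, 53.9% were alternative (50.6 to 57.2%), against 31.4% of exons of 28 to 51 bases, 21.1% of exons of 52 bases or more and 21.9% of all. The order held at a matched number of models. With 2 spanning models, 34.3% of microexons and 11.8% of exons of 52 bases or more were alternative. With 6 or more, 76.7% of microexons (69.7 to 82.8%) and 43.7% of exons of 52 bases or more were alternative. By length, the share was 71.2% at 3 to 9 bases, 70.6% at 10 to 18 and 46.7% at 19 to 27, and reached its lowest value, 18.7%, at 100 to 199 bases. The value at 3 to 9 bases is the least certain. In models of 200 spliced bases or more, 41 of 75 exons of that length had canonical ends and 38 of 75 were in GENCODE. An alternative microexon was held by a median of 42.9% of the models that span it.

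Skipping was the main kind of alternative event. Of the 491 alternative microexons, 345 lay inside an intron of another model (70.3%), 97 were overlapped by a longer or shorter exon (19.8%) and 49 showed both (9.98%). In exons of 52 bases or more the shares were 48.4%, 42.8% and 8.80%. Of the 146 overlapped microexons, 71 shared the acceptor and 70 the donor with the other exon. In 305 microexons, a reference model joined exactly the 2 neighbouring exons and left the microexon out, and these are called cleanly skipped here. Another microexon was a neighbouring exon of 22 of the 305 (7.21%), a smaller share than among all microexons.

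Alternative microexons were mostly multiples of 3, so that skipping them leaves the reading frame intact. Of all microexons, 60.4% had a length divisible by 3, beside 40% of all internal exons. The share was 72.7% of alternative microexons (357 of 491, 68.5 to 76.6%) against 54.5% of constitutive ones (560 of 1027). Without the models under 200 spliced bases, the constitutive share was 57.6%. Among cleanly skipped microexons it was 86.9% (265 of 305, 82.6 to 90.5%), and among those that GENCODE gives as coding it was 92.2% (249 of 270, 88.4 to 95.1%). The same class held 75.4% multiples of 3 at 28 to 51 bases and 62.5% at 52 bases or more. With 1 exon per gene the values were 91.3%, 73.8% and 63.1%. Microexons that were overlapped but not skipped had a share of 45.4% (44 of 97).

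**Figure D2:**
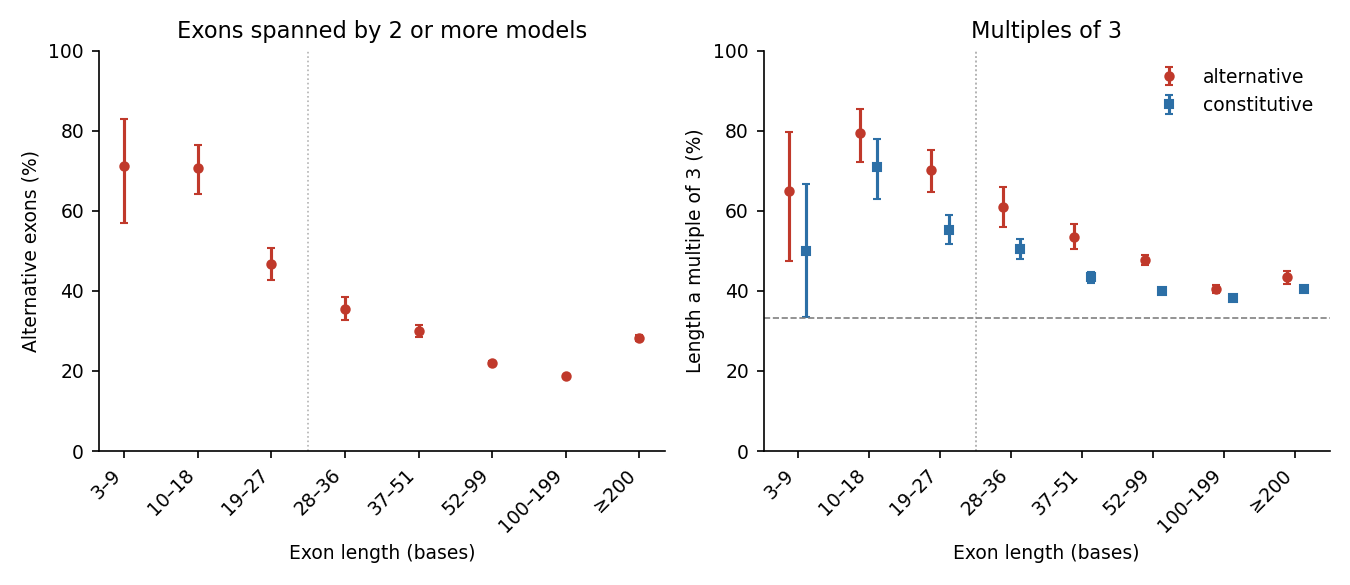
Share of exons called alternative among those with 2 or more spanning models (left) and share with a length divisible by 3 (right) by exon length in bases, without models under 200 spliced bases, with exact 95% intervals. The dotted line separates microexons from longer exons, and the dashed line marks 1 in 3. Alternative exons are most frequent at 3 to 18 bases, and the alternative and constitutive shares of multiples of 3 lie nearest each other at 100 to 199 bases.

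Some constitutive microexons lay in gene families of repeated structure, named after their values were seen. Collagen, butyrophilin, TRIM and casein genes held 168 of the 918 constitutive microexons of models of 200 spliced bases or more (18.3%). Of the 168, 93 were spanned by 1 model only (55.4%), which fixes the call. The share was similar over all such constitutive microexons, 498 of 918 (54.2%). Collagen genes held 81 microexons in 29 gene names, of which 55 had 27 bases, 59 had a length divisible by 9 and 4 were alternative. Collagen chains are built of Gly-X-Y triplets. COL13A1 had 11 microexons, COL23A1 9 and COL25A1 8. Of these, a 7-base exon of COL13A1 and a 6-base exon of COL23A1 had non-canonical ends and were not in GENCODE. Butyrophilins and ERMAP, membrane proteins related to immune receptors, held 32, of which 31 were multiples of 3 and 3 alternative. TRIM genes, a family of RING-type ubiquitin ligases, were of another kind: 43 of 51 TRIM microexons had 23 bases, and 43 of all 112 microexons of 23 bases lay in TRIM genes. The gene with the most members was C6orf10, with 19, all multiples of 3, of which 5 were alternative. TRDN, the triadin of the muscle calcium release complex, had 9, and CSN1S1, a milk casein, 7. Outside these 4 families, 408 of 750 constitutive microexons of such models were multiples of 3 (54.4%), against 529 of 918 with them (57.6%). Near-identical copies share some exons letter by letter, among them a 23-base exon at 6 places in TRIM49 and its relatives and 21-base exons of FCGR1A, FCGR1B and FCGR1C. These members come from the annotation, but reads from such copies can be placed at more than 1 of them. Which copy a joined model at these members came from is therefore uncertain.

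The intron before cleanly skipped microexons carried TGC, the DNA form of the core letters bound by SRRM4, more often than the intron before longer skipped exons. The letters TGC were searched on the transcript strand only, in the 20 bases before the acceptor AG. They were present before 33.8% of all microexons, beside 34.8% of all internal exons, so microexons as a whole did not stand out. Before cleanly skipped microexons they were present in 141 of 305 (46.2%, 40.5 to 52%), against 32.9% of cleanly skipped exons of 28 to 51 bases and 32.4% of those of 52 bases or more. Among coding members the values were 49.6%, 34.0% and 34.1%, and with 1 exon per gene 48.1%, 33.5% and 34.4%. TGC directly before AG is also part of the ordinary acceptor, where C is the usual base. When TGC at that place was not counted, the share was 40.7% before cleanly skipped microexons (35.1 to 46.4%), against 26.0% at 28 to 51 bases and 26.4% at 52 bases or more. For constitutive exons it was 20.4%, 21.9% and 27.6% in the same order of length. Among the exons shown above, TGC lies away from the acceptor before both CADPS exons and the KCNMA1 9-base exon, while before the KCNMA1 12-base exon it lies directly before AG. Other exons shown lack TGC in the window, among them those of NSMF, GIT2 and SNAP91 and the 9-base exons of PTPRD and PTPRS. In the whole exocytosis, granule and excitability list, TGC preceded 14 of 32 microexons. A match is a description of letters, and no binding was measured.

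The pyrimidine tract also differed in shape. Before cleanly skipped microexons C or T made up 69.8% at 35 bases before the exon, against 55.8% before cleanly skipped exons of 52 bases or more. Nearer to the exon the order turned, with 71.5% and 78.1% at 10 bases before it. Constitutive microexons had 59.8% and 85.6% at those places. For intron length, the shortest flanking intron over the reference models that hold the exon was taken. The upstream intron had a median of 1912 bases at cleanly skipped microexons and 2337 at cleanly skipped exons of 52 bases or more. The downstream intron had 1650 and 2200.5. Constitutive microexons of models of 200 spliced bases or more had medians of 1159.5 bases upstream and 999 downstream. By median, the introns beside skipped microexons were thus shorter than those beside longer skipped exons and longer than those beside constitutive microexons.

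**Figure D3:**
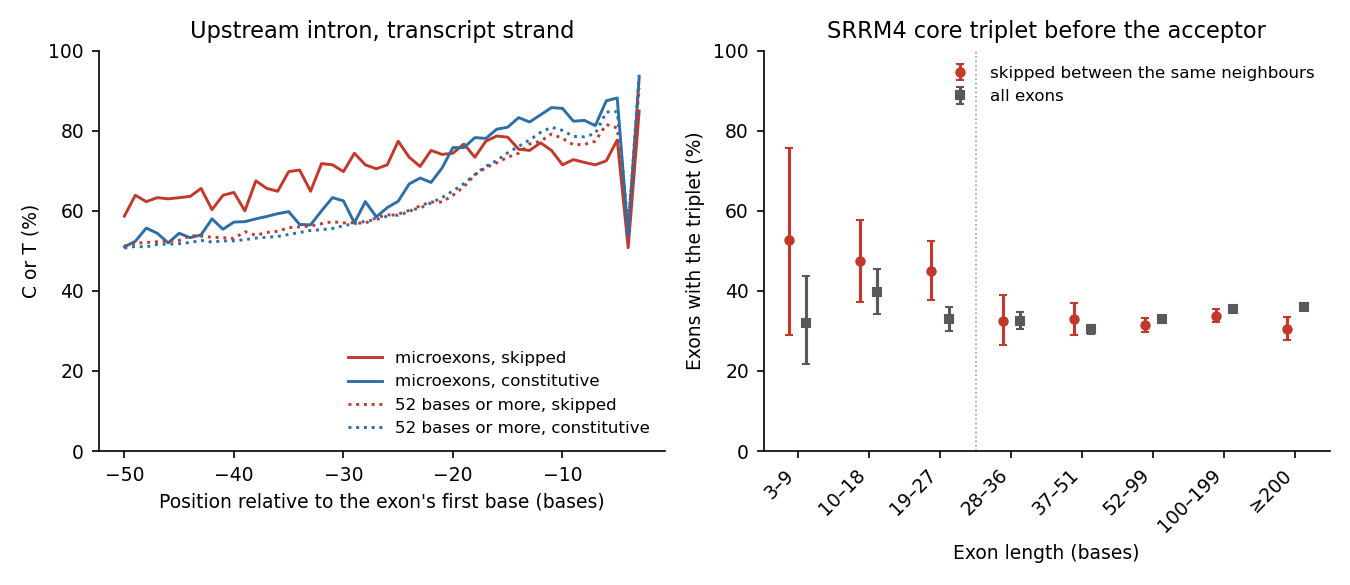
Left, share of C or T at each position of the upstream intron, for microexons and exons of 52 bases or more that were cleanly skipped or constitutive. Right, share of exons with the SRRM4 core triplet in the 20 bases before the acceptor AG, by exon length, with exact 95% intervals. At 35 bases before the exon, the cleanly skipped microexons have more pyrimidines than the other classes shown, with 69.8%. The triplet share of the cleanly skipped microexons is 52.6% at 3 to 9 bases, 47.4% at 10 to 18 and 45% at 19 to 27. The share at 3 to 9 bases rests on 10 of 19 exons (28.9 to 75.6%), and the intervals at these lengths overlap.

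Gene lists chosen with earlier results of these data known were set beside the 5.86% of all gene names. Of 70 neural and endocrine genes known for microexons, 48 had one (68.6%), and since the list was chosen for that, its share is no independent evidence. It held 83 microexons, of which 59 were alternative and 74 multiples of 3. Muscle contractile and sarcomere genes had one in 22 of 43 genes (51.2%) and held 40, of which 24 were alternative and 28 multiples of 3. Exocytosis, granule and excitability genes had one in 25 of 57 (43.9%) and held 32, of which 20 were alternative and 28 multiples of 3. Beta cell and diabetes locus genes had one in 4 of 43 with an internal exon (9.30%), and splicing regulators in 1 of 44 (2.27%). The lists share 9 of their 257 genes. CASK, DNM2, ERC1, ITSN1 and SNAP91, each with a microexon, are in both the neural and the exocytosis lists. As all lists were chosen with earlier results known, the other shares are no independent evidence either. Within cleanly skipped coding microexons, TGC preceded 28 of 47 in the neural and endocrine list (59.6%, 44.3 to 73.6%) and 106 of 223 in other genes (47.5%, 40.8 to 54.3%), and the intervals overlap.

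**Figure D4:**
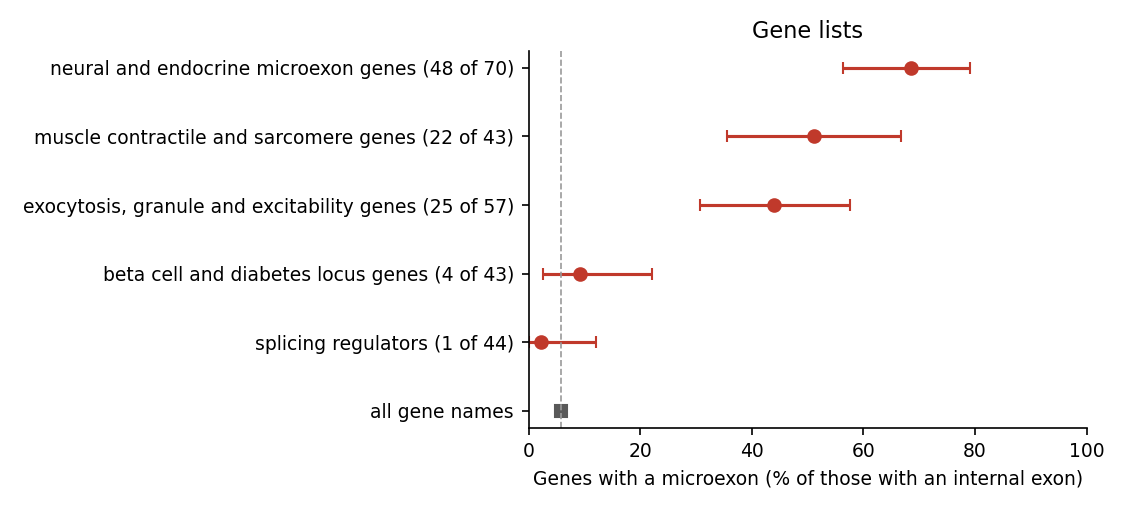
Percentage of genes with at least 1 microexon in each list, with exact 95% intervals and the counts in brackets, and in all gene names (square, dashed line at 5.86%). The neural and endocrine, muscle, and exocytosis lists lie above the line with their whole interval, and the intervals of the other lists reach it.

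Within the neural and endocrine list, PTPRD had the most microexons, followed by PTPRS. PTPRD had 6 microexons of 9, 12, 12, 15, 18 and 27 bases, all alternative, and PTPRS had 5 of 9, 12, 12, 18 and 27 bases, of which 4 were alternative. Letter by letter, the exons of 9 bases were identical at 6 positions, those of 18 bases at 10 and those of 27 bases at 18. The 12-base exons shown above differed by G5T, counted from the first base of the exon with the PTPRD base first. In PTPRD, 5 of 6 spanning reference models held the 9-base exon and 5 of 6 this 12-base exon, while 1 of 6 held the 27-base exon. In PTPRS, 1 of 4 held the 9-base exon, 2 of 4 the 12-base exon and 1 of 4 the 27-base exon. The 12- and 15-base exons with a common donor were held by 2 and 1 of 6 PTPRD models. DCTN1, the large subunit of dynactin, had 4 alternative microexons of 15, 18, 21 and 21 bases. CLASP1 and CLASP2, which stabilise microtubule ends, carried a 24-base pair identical at 17 positions, held by 3 of 4 CLASP1 and 1 of 2 CLASP2 models, and another identical at 13, held by 1 of 4 and 2 of 2.

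Among secretion genes, CADPS, a priming factor of dense-core granules, had cleanly skipped microexons of 21 and 18 bases, each held by 1 of 3 reference models. Its relative CADPS2 had coding microexons of 15 and 21 bases, each in 1 of 3 models, and further ones of 6 and 7 bases with non-canonical ends that GENCODE lacks. KCNMA1, the large-conductance calcium-activated potassium channel, had a 9-base exon in 1 of 6 models and a 12-base exon in 2 of 6. CACNA1D, the pore of an L-type calcium channel of beta cells, had a 27-base exon in 3 of 3 models and another in 2 of 3. The 27-base exon of its relative CACNA1C was in 23 of 23 models. SYNJ1, a phosphoinositide phosphatase of vesicle recycling, had 24-base exons in 2 of 4 and 3 of 4 models.

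The 4 microexons of the beta cell and diabetes list lay in TCF7L2, ANK1, ADCY5 and TLE4. TCF7L2, a transcription factor of the Wnt pathway at a type 2 diabetes locus, had a 25-base exon in 2 of 13 models, outside GENCODE coding sequence. ANK1, an adaptor of the membrane skeleton, had a 24-base exon in 1 of 5. The exons of ADCY5, an adenylyl cyclase, and TLE4, a corepressor, were constitutive, with 23 and 17 bases. SRRM4 itself had a constitutive 27-base exon, in its 1 spanning model. KDM1A, a histone demethylase, named after its values were seen, had the 12-base exon in 1 of 2 models, with TGC upstream, and MEF2D, a transcription factor of muscle and neurons, a 21-base exon in 1 of 2.

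Muscle genes held many microexons as well. TNNT3, the fast skeletal troponin T, had 8, of which 4 were alternative. TNNT2, its cardiac relative, had 4 alternative ones of 6, 10, 11 and 15 bases, and those of 6 and 10 bases had non-canonical ends and were not in GENCODE. CAPN3, a muscle calpain, had a constitutive exon of 12 bases and an 18-base exon in 3 of 6 models. DTNA, a dystrobrevin of the dystrophin complex, had a 9-base exon in 5 of 17 models.

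Joined models are those the assembly built in which at least 1 splice junction is shared with a reference transcript and the structure differs from it. They were assembled rather than copied whole from the annotation, and they are pooled over INS-KD and negative control libraries. Of 4907 joined models, 518 held a microexon (10.6%, 9.71 to 11.4%), in 283 gene names. In 123 the model held a microexon that its nearest reference transcript lacks, and in 159 it lacked one that the reference holds. Such counts per model were not made for longer exons. Since joined models differ from their reference by definition, these counts do not show that microexons stand out. In all, 374 of 1518 microexons were in a joined model (24.6%), beside 18.8% of all internal exons, and 153 were skipped by one (10.1%), beside 2.11% of all. Of the 281 alternative microexons spanned by a joined model, 69.8% were in one and 54.1% were skipped by one (48.1 to 60%), against 67.7% and 35.6% of alternative exons of 52 bases or more. The longer class held more overlapped exons, and within cleanly skipped exons spanned by a joined model the skipped share was 64.0% of microexons (114 of 178, 56.5 to 71.1%), 64.8% at 28 to 51 bases and 65.0% at 52 bases or more. In 69 gene names, 89 of 1518 microexons were held by 1 joined model and skipped by another (5.86%), beside 1.2% of all internal exons. Both shares count constitutive exons too, and 32.3% of microexons were alternative, beside 11.4% of all internal exons. Of the 89, 79 were multiples of 3 (88.8%), against 67.8% of such exons of 28 to 51 bases and 51.9% of those of 52 bases or more. A single constitutive microexon was skipped by a joined model.

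The 12 microexons with the most joined models on both sides were taken by rule, and 10 of them are described. SNAP91, a clathrin adaptor of synaptic vesicles, had its 15-base exon in 5 of 6 reference and 8 of 9 joined models. ABI1, an actin regulator of the WAVE complex, had a 15-base exon in 8 of 12 reference and 3 of 5 joined models. TEAD2, a Hippo pathway transcription factor, had a 12-base exon in 3 of 6 reference and 3 of 6 joined models. The DTNA exon was in 2 of 5 joined models. A further 6 of the 12 lay in GPR64, PCDH11X, CAMTA2, COL13A1, HELLS and IL32, between 1 of 5 joined models in HELLS and 4 of 5 in COL13A1 and IL32. Both CADPS exons were held by 1 and skipped by 1 of 2 joined models. The KCNMA1 9-base exon was in 1 of 4 joined models and the 12-base exon in 0 of 4. The CACNA1D exon shown above and the TCF7L2 exon were in 0 of 1 and 0 of 4. In CACNA1C 8 of 8 joined models held the microexon. A count of models is not a level, and the share of RNA with a microexon was not measured.

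**Figure D5:**
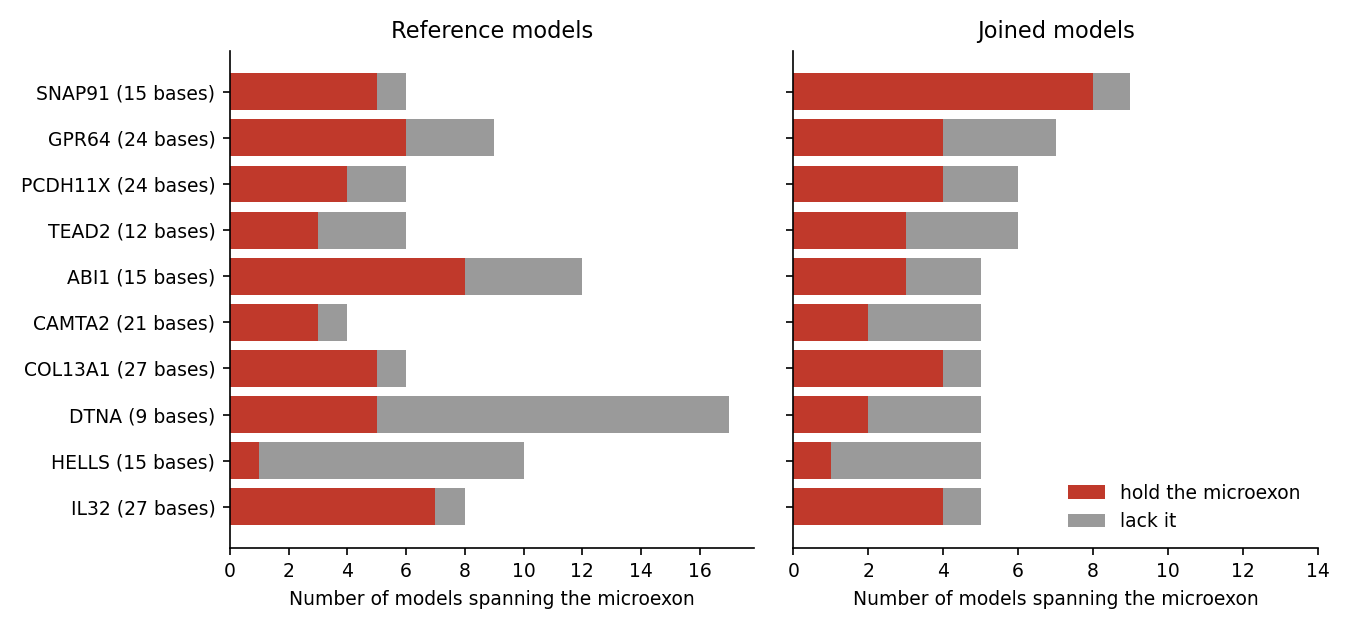
For 10 of the 12 microexons with the most joined models on both sides, the number of reference models (left) and joined models (right) that hold the microexon or lack it. SNAP91 has 8 of 9 joined models with its microexon, while HELLS has 1 of 5 and DTNA 2 of 5.

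GENCODE gives a codon start for the 1206 coding microexons. In 41.0% the exon began with a whole codon, in 39.2% its first 2 bases completed the codon of the exon before, and in 15.9% its first base did. The others had more than 1 codon start among GENCODE transcripts.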

How the data were processed

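The deposited file is 1 merged transcript assembly of 6 libraries, and the values deposited in it are the first and last base of every exon, with text tags that pair each model with its nearest RefSeq transcript. The submitters' processing notes list TopHat2, Cufflinks and the build hg19, with versions and settings not given in the sources used here. Per the labels' protocols, full-length cDNA was made from total RNA with a low-input kit. The file holds no abundance, so no test between groups was run.

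Internal exons were compared as sets of positions in Python 3.11.15 with pysam 0.24.0, pandas 2.3.3 and scipy 1.17.1, and the calls were tested on simulated models. Intron letters came from the GRCh37 genome, and exact exons and coding segments from GENCODE release 44 on the same build. The members and lists were chosen with earlier results of these data known. Named genes were the 10 with the most members, members of 3 to 6 bases with flanking introns of at least 30 bases (up to 12, shortest first), up to 8 genes per list and the 12 members with the most joined models, of which 2 are not reported here. Most of those 12 shortest were in MIR or RNU names and are given as a group. No sequence was printed for chromosome 8.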

Additional observations from a re-analysis of the deposited data

How the results depend on the processing

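The number of microexons stayed within 1.5 times of 1518 under each alternative tried, and no result changed direction. The alternative share, 32.3%, was 36.6% with an upper limit of 24 bases, 28.7% with 30 bases, 53.9% with 2 or more spanning models and 34.8% without models under 200 spliced bases, an alternative chosen after seeing the data. The share of multiples of 3 was 76.8% for alternative microexons in the reference annotation, against 72.7%. For constitutive ones, 54.5%, it was 58.5% with protein-coding accessions only, 51.2% with a limit of 30 bases, 60.7% with 2 or more spanning models, 51% with 1 microexon per gene, 58% in the reference annotation and 57.6% without models under 200 spliced bases. The share in joined models, 24.6%, was 27.4% with protein-coding accessions only and 9.09% when at least 2 joined models were required. The TGC share, 33.8%, was 42.1% in a window of 30 bases. Without models under 200 spliced bases, 94.0% were in GENCODE, against 87.3%, and 85.6% were coding, against 79.4%. No paired analysis was possible because the file has no value per library, and for the same reason no replicate could be left out. Sequencing depth is unknown. Members missing from RefSeq, and exons too short to align, were not measured.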
